A study of Homo sapiens with 36 samples.

Results

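The Mir-188 and Mir-362 families are small families of microRNAs (miRNAs). They were represented by 3 mature miRNAs, Hsa-Mir-188-P2_5p, Hsa-Mir-188-P3_5p and Hsa-Mir-362-P2-v1_3p (hereafter P2, P3 and Mir-362), in a deposited table that held 132 others. These are all rows whose name begins with Hsa-Mir-188- or Hsa-Mir-362- and does not end in an asterisk, the sign that MirGeneDB gives to the passenger strand. The table held 0 passenger strands of these families, so strand choice could not be followed, and no other row had the same values as a member in all libraries. The members were measured in HEK293T, an established human embryonic kidney cell line, which was transfected with a Flag/HA vector that was empty or coded for AGO2, as WT-AGO2 or as the variant F182del, N359H, G604R or D619N, and co-transfected with an EGFP vector. Libraries were made from small RNA of the lysate (Input) and of the material precipitated by an antibody against HA (IP), with 3 replicates of each of the 12 conditions. The labels name no deletion of the cells' own AGO2, which carries no tag and whose miRNAs are therefore in the Input. Nothing in the labels says whether replicates are separate transfections, so p-values measure the spread between these libraries only.

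A miRNA is cut from a hairpin precursor, and its strands are named 5p and 3p after the arm they come from. The guide strand is loaded into an Argonaute protein such as AGO2 and leads it to mRNAs that pair mainly with the seed, bases 2 to 8 of the miRNA. Families group miRNAs of common descent, which often share all or most of the seed. The human genes MIR188 and MIR362, whose numbers these families carry, lie with 6 other hairpins in the gene of the chloride/proton exchanger CLCN5. CLCN5 covers chrX:49922615-50099235 (GRCh38, GENCODE v29, plus strand), and the 8 hairpins lie on the same strand between chrX:50003148 and chrX:50014683, in intronic sequence with no CLCN5 exon between 49925314 and 50042316.

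The member names match 0 of the names in the RefSeq table used here, and no source used here pairs P2, P3 or P2-v1 with a RefSeq miRNA, so no sequence is assigned to a member. To show how alike neighbouring guides of this cluster can be, the 5p arm of MIR188 and the 3p arm of MIR362 are given beside the same-arm miRNA of the cluster with the most identical positions counted from the 5′ end (RefSeq, GRCh38.p14, plus strand, 5′ to 3′). Capitals mark the seed. The miRNAs span chrX:50003517-50003537, chrX:50003167-50003188, chrX:50009005-50009026 and chrX:50014649-50014670, in the order shown.
hsa-miR-188-5p: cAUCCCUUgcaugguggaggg
hsa-miR-532-5p: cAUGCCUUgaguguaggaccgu
hsa-miR-362-3p: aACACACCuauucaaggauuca
hsa-miR-502-3p: aAUGCACCugggcaaggauuca
The first pair had 14 of 21 positions and 6 of 7 seed bases in common, and the second pair 17 of 22 positions and 5 of 7 seed bases. How the authors assigned reads that map to several miRNAs is not described.

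All members were rare. The deposited RPM (reads scaled to the total reads of the library) were whole multiples of the value of 1 read, within 0.01 of a read, which gives the reads behind each value. The largest value was 47 reads for P2, 36 for P3 and 20 for Mir-362, and they were above 0 in 24, 24 and 17 of the 36 libraries. Depth was low in general, with 1150 to 30793 mature miRNA reads in the 15 IP libraries of tagged AGO2, 446 to 12040 in the matching Inputs and 174 to 202 in IP of the empty vector. The shallowest Inputs were replicate 1 of G604R (446 reads) and replicate 1 of D619N (817 reads). In the following, a share is the percentage of the mature miRNA reads of a library, and intervals (Wilson, 95%) and limits (3 reads) cover counting error only, since the reads carry no molecular identifiers.

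In IP of WT-AGO2 all 3 members were present in every library. P2 had 47, 8 and 10 reads in replicates 1, 2 and 3, or 168, 77.7 and 36.5 RPM, and its share was 0.153%, 0.124% and 0.164% (mean 0.147% ± 0.0203, SD, n = 3). The RPM of P2 thus differed between replicates far more than its share. P3 had 36, 6 and 4 reads and shares of 0.117%, 0.0933% and 0.0655% (mean 0.0919% ± 0.0257, SD, n = 3). Mir-362 had 11, 2 and 5 reads and shares of 0.0357%, 0.0311% and 0.0819% (mean 0.0496% ± 0.0281, SD, n = 3). By mean share the members ranked 54th, 74th and 98th among all miRNAs of the table. The shares of P2 lay above those of P3 in each of the 3 libraries, while those of P3 and Mir-362 overlapped.

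In the WT-AGO2 Input the order was the same, at ranks 68, 78 and 100. P2 had 10, 4 and 4 reads and shares of 0.106%, 0.0908% and 0.146%. P3 had 3, 4 and 3 reads and shares of 0.0319%, 0.0908% and 0.109%. Mir-362 had 6, 0 and 1 reads. No difference of the members between IP and Input, relative to the other miRNAs, passed the test. In limma on log2(scaled RPM + 1), the log2 fold change of IP over Input was 0.58 (SE 0.47) for P2, 0.55 (SE 0.67) for P3 and 1.06 (SE 0.96) for Mir-362, beside a median of 0.28 over the 126 miRNAs tested. Throughout, scaling is by the median of ratios over miRNAs present in all libraries of a comparison, and calls need a Benjamini-Hochberg adjusted p below 0.05 and a log2 fold change beyond 1 in either direction. In this comparison 0 of 3 members were called (0 at an unadjusted p below 0.05), beside 11.9% of all miRNAs tested. Without scaling, on the deposited RPM, all 3 were called higher in IP, as were 100 of the 126 miRNAs, and the median log2 difference of all miRNAs was then 3.74.

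**Figure D1:**
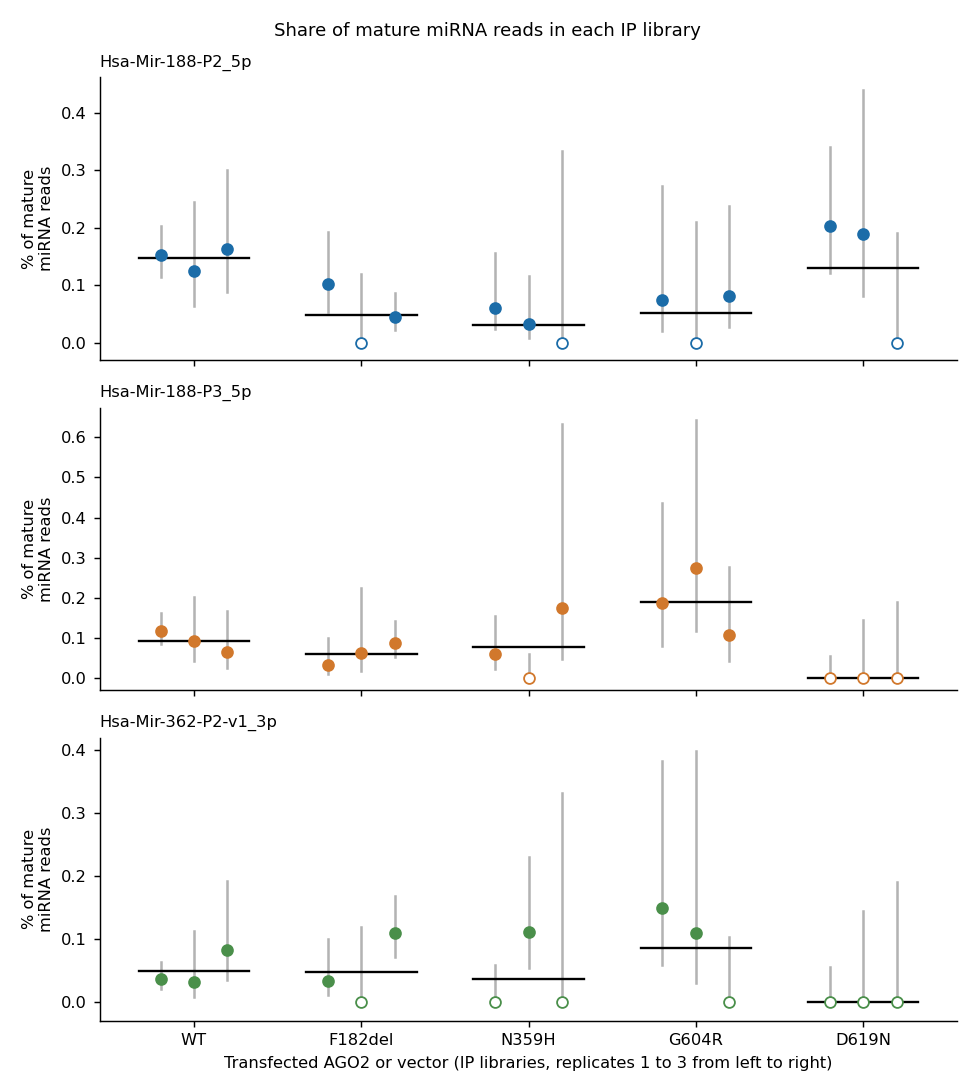
Share of mature miRNA reads (%) of each member in each IP library of tagged AGO2, with Wilson 95% intervals as grey lines, group means as black lines and open circles for libraries at 0. P3 and Mir-362 were at 0 in all 3 D619N libraries, and the P2 shares of F182del, N359H and G604R all lay below those of WT.

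With the D619N variant, P3 and Mir-362 were not recovered in IP, while P2 was. P3 had 0 reads in all 3 D619N libraries, which hold 11561 mature miRNA reads together, of which a floor of 3 reads is 0.0259%. The share of P3 over the 3 WT-AGO2 libraries together was 0.106%, or 4.09 times this floor. This ratio takes the WT share as measured, without its counting error. The pooled Wilson intervals, 0.0796% to 0.142% in WT and 0% to 0.0332% in D619N, did not overlap. At the WT share 12.3 reads of P3 would have been in the D619N libraries. The ratio rests largely on the deepest libraries, as it is 1.65 without D619N replicate 1 and 3.07 without WT replicate 1. Mir-362 also had 0 reads in all 3 libraries. Its WT share was lower, 0.0415%, so that 4.80 reads would have been in the D619N libraries, and the ratio to the floor was 1.60. The pooled Wilson intervals, 0.0263% to 0.0657% in WT and 0% to 0.0332% in D619N, overlapped. Overlapping intervals are not a test of a difference, so whether the lower share of Mir-362 goes beyond counting error was not tested. Without D619N replicate 1 the expected number fell to 1.94 reads, and a lower level of Mir-362 was then not detectable at this depth. Without WT replicate 1, 2 or 3 the ratio of Mir-362 was 2.15, 1.67 and 1.35.

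P2, unlike its family member P3, was recovered in D619N IP. It had 14, 5 and 0 reads in replicates 1, 2 and 3, with shares of 0.203%, 0.188% and 0% (mean 0.130% ± 0.113, SD, n = 3). The shares of replicates 1 and 2 lay above all 3 WT-AGO2 shares, and replicate 3 lay below them, at a depth where 3.02 reads would have been seen at the WT share. Over the 3 libraries 19 reads were seen where the WT share gives 17.3. P2 ranked 48th among all miRNAs in D619N IP.

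P3 and Mir-362 passed the filter on low values only through WT-AGO2, and their D619N values, all at 0, have no spread. Their limma calls as lower in D619N (both adjusted p = 0.00444, Benjamini-Hochberg) are therefore given as values only, and the comparison rests on the reads and intervals above. P2 was not called (log2 fold change -1.84, SE 1.96, 95% interval -6.56 to 2.89, limma adjusted p = 0.561), and without D619N replicate 3 its log2 fold change was 0.61. The fitted log2 fold changes of P3 (-5.91, SE 0.81) and Mir-362 (-4.94, SE 0.73) depend on the pseudocount, since one group was at 0, and do not measure the size of the difference. Over all 123 miRNAs tested 14.6% were called and 11.4% were called lower. The median log2 fold change of all 123 was -1.18. By share, 27.6% of the miRNAs tested lay below WT in all libraries, as did P3 and Mir-362. D619N IP left 15 of the 123 tested miRNAs at 0 in all its libraries, 10 of which were above 0 in all WT libraries. Both calls were lost on RPM as deposited (limma adjusted p = 0.0565 for each, with 0 of 123 miRNAs called), and that of Mir-362 was lost in the fit of all 5 AGO2 groups (limma adjusted p = 0.132). The part of the low depth of the D619N libraries (2011 to 6895 mature miRNA reads, against 6105 to 30793 for WT) in these calls was not tested, and the shares do not show how much tagged AGO2 was recovered.

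**Figure D2:**
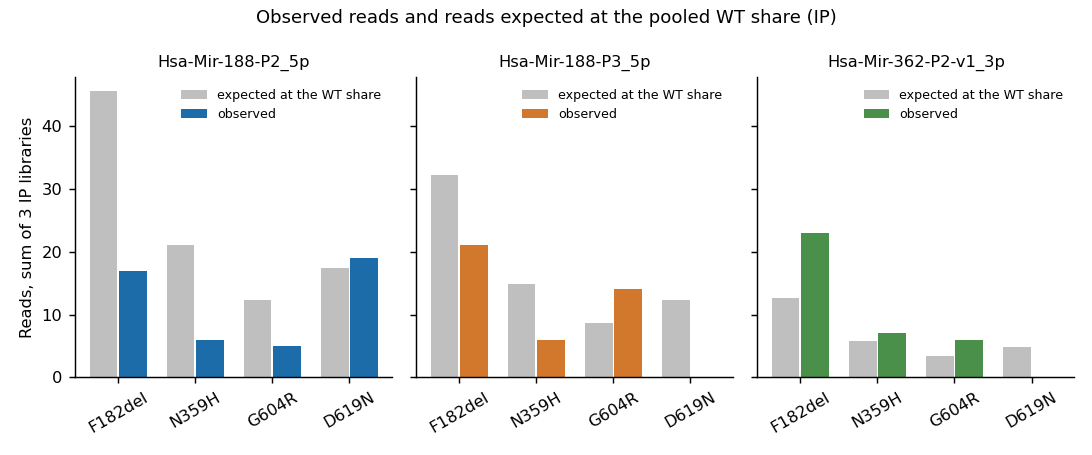
Reads observed in the 3 IP libraries of each variant together (coloured bars) and reads expected there at the pooled share of WT-AGO2 (grey bars), for each member. In D619N, P2 had 19 reads where 17.3 were expected, while P3 and Mir-362 had 0 where 12.3 and 4.80 were expected.

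In the other 3 variants P2 was the member with the lowest mean share relative to WT-AGO2. In F182del IP it had 9, 0 and 8 reads and shares of 0.102%, 0% and 0.0438%, a mean of 0.330 times that of WT. In N359H IP it had 4, 2 and 0 reads and shares of 0.0605%, 0.0318% and 0%, a mean of 0.209 times WT. In G604R IP it had 2, 0 and 3 reads and shares of 0.0747%, 0% and 0.0808%, a mean of 0.353 times WT.

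By share, all 3 libraries of each of these variants lay below all 3 WT libraries, and each variant had 1 library at 0. Over the libraries together 17, 6 and 5 reads of P2 were seen in F182del, N359H and G604R, where the WT share gives 45.5, 21.1 and 12.3. The pooled Wilson interval of P2 in WT was 0.118% to 0.191%. Those of F182del (0.0350% to 0.0897%) and N359H (0.0196% to 0.0932%) did not overlap with it, while that of G604R (0.0260% to 0.143%) did. These intervals do not include the spread between libraries. P2 was the only one of the 3 members to lie below WT in all libraries, as did 10.5% of the miRNAs tested in F182del, 10.6% in N359H and 9.76% in G604R. On the scaled RPM used for the tests the F182del and WT libraries overlapped. None of these differences of P2 passed the test. The log2 fold change was -2.66 (SE 1.25) in F182del (limma adjusted p = 0.251), -3.16 (SE 1.67) in N359H (limma adjusted p = 0.740) and -2.57 (SE 1.41) in G604R (limma adjusted p = 0.397). The comparisons share the WT-AGO2 libraries. Leaving out single libraries moved the ratio to WT between 0.149 (without F182del replicate 1) and 0.495 in F182del, between 0.108 (without N359H replicate 1) and 0.314 in N359H, and between 0.254 and 0.529 in G604R, with the upper values reached without the library at 0.

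P3 overlapped with WT-AGO2 in these 3 variants. It had 3, 2 and 16 reads in F182del IP (shares 0.0339%, 0.0620% and 0.0876%), and 4, 0 and 2 reads in N359H IP (shares 0.0605%, 0% and 0.174%). Over the libraries together 21 reads of P3 were seen in F182del and 6 in N359H, where the WT share gives 32.2 and 14.9, so that P3, like P2, was below the expected number in both. The mean share of P3 in N359H was 0.850 times that of WT, but 0.329 times without replicate 3, where 2 reads stand against 1150 mature miRNA reads. In G604R IP it had 5, 5 and 4 reads, and its shares of 0.187%, 0.275% and 0.108% gave the highest mean of all 12 conditions (0.190% ± 0.0835, SD, n = 3), 2.06 times that of WT, and 14 reads were seen where the WT share gives 8.72. Replicate 3 of G604R lay within the range of WT. The log2 fold change of P3 was -0.58 (SE 0.74) in F182del and -1.72 (SE 1.80) in N359H, where it was 0.27 without replicate 2. In G604R it was 0.81 (SE 0.64, 95% interval -0.65 to 2.28, limma adjusted p = 0.517), and on RPM as deposited, where the median of all miRNAs shifts to -1.39, it turned to -0.29.

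In these 3 variants Mir-362 had the largest SD relative to its mean. It had 3, 0 and 20 reads in F182del IP (shares 0.0339%, 0% and 0.109%), 0, 7 and 0 reads in N359H IP (0.111% in replicate 2), and 4, 2 and 0 reads in G604R IP (0.149%, 0.110% and 0%). The shares of each of these variants overlapped with those of WT. Mir-362 had 23, 7 and 6 reads over the libraries together in F182del, N359H and G604R. The WT share gives 12.6, 5.83 and 3.41, so the summed reads lay above the expected number in each. With libraries at 0 in each variant, its log2 fold change was still negative. It was -1.10 (SE 1.41) in F182del, -2.66 (SE 2.06) in N359H and -0.49 (SE 1.65) in G604R. The sign turned in F182del without replicate 2, and in G604R without replicate 3 or with a pseudocount of 10 RPM. In limma 0 of 3 members were called in F182del, N359H and G604R (0 at an unadjusted p below 0.05 in each), beside 6.02%, 0% and 4.88% of the miRNAs tested.

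**Figure D3:**
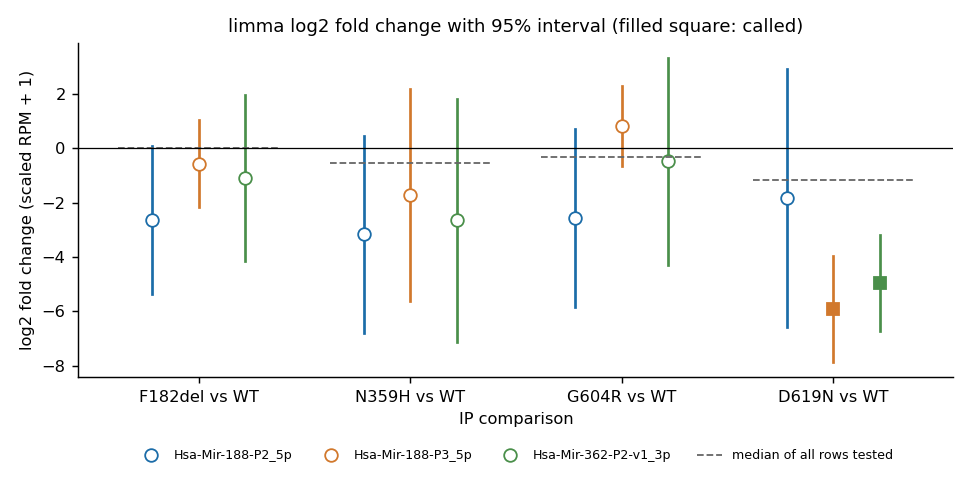
log2 fold change of each member in IP of each variant against WT-AGO2 (limma, log2 of scaled RPM + 1), with 95% intervals as vertical lines, filled squares where called and open circles where not, and the median of all miRNAs tested as a dashed line. P3 and Mir-362, at 0 in all D619N libraries, were at -5.91 and -4.94, and the intervals of all other values include 0.

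The balance between both Mir-188 members is a comparison that was chosen after the values were seen, and it is given as a description with no test. In IP of WT-AGO2, P2 made up 47 of 83, 8 of 14 and 10 of 14 reads of the pair, or 65 of 111 (58.6%, exact 95% interval 48.8 to 67.8). In D619N IP it was 14 of 14 and 5 of 5 reads, with 0 reads of either in replicate 3, or 19 of 19 (interval 82.4 to 100%). In G604R IP it was 2 of 7, 0 of 5 and 3 of 7 reads, or 5 of 19 (26.3%, interval 9.15 to 51.2). F182del had 17 of 38 and N359H 6 of 12 reads, but with replicates far apart, at 9 of 12, 0 of 2 and 8 of 24 in F182del. In the Inputs, P2 was 18 of 28 reads for WT-AGO2, 5 of 9 for D619N, 0 of 7 for G604R and 16 of 24 for the empty vector.

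**Figure D4:**
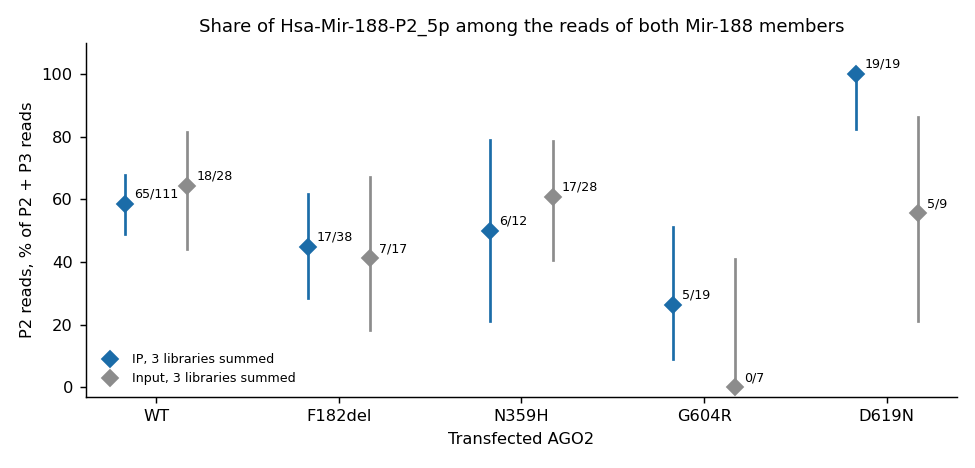
Reads of P2 as a percentage of the reads of P2 and P3 over the 3 libraries of each AGO2 form, in IP (blue) and Input (grey), with exact 95% intervals for counting error and the reads as numbers. The IP values ran from 26.3% in G604R over 58.6% in WT to 100% in D619N.

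The Inputs show how far these differences were also present in the lysate. For P2 the Inputs had 3, 0 and 4 reads with F182del, 4, 8 and 5 with N359H, 0, 0 and 0 with G604R, 0, 2 and 3 with D619N and 3, 7 and 6 with the empty vector. For P3 they had 4, 2 and 4 reads with F182del, 0, 9 and 2 with N359H, 0, 5 and 2 with G604R, 0, 0 and 4 with D619N and 0, 4 and 4 with the empty vector. For Mir-362 they had 3, 3 and 2 reads with F182del, 0, 7 and 0 with N359H, 0, 0 and 0 with G604R, 0, 0 and 5 with D619N and 0, 3 and 5 with the empty vector. The members missing from D619N IP were thus present in 1 of 3 D619N Inputs, with 4 reads of P3 and 5 of Mir-362 in replicate 3. At the WT Input share, 3.64 reads of P3 and 2.55 of Mir-362 would have been in these 3 Inputs.

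**Figure D5:**
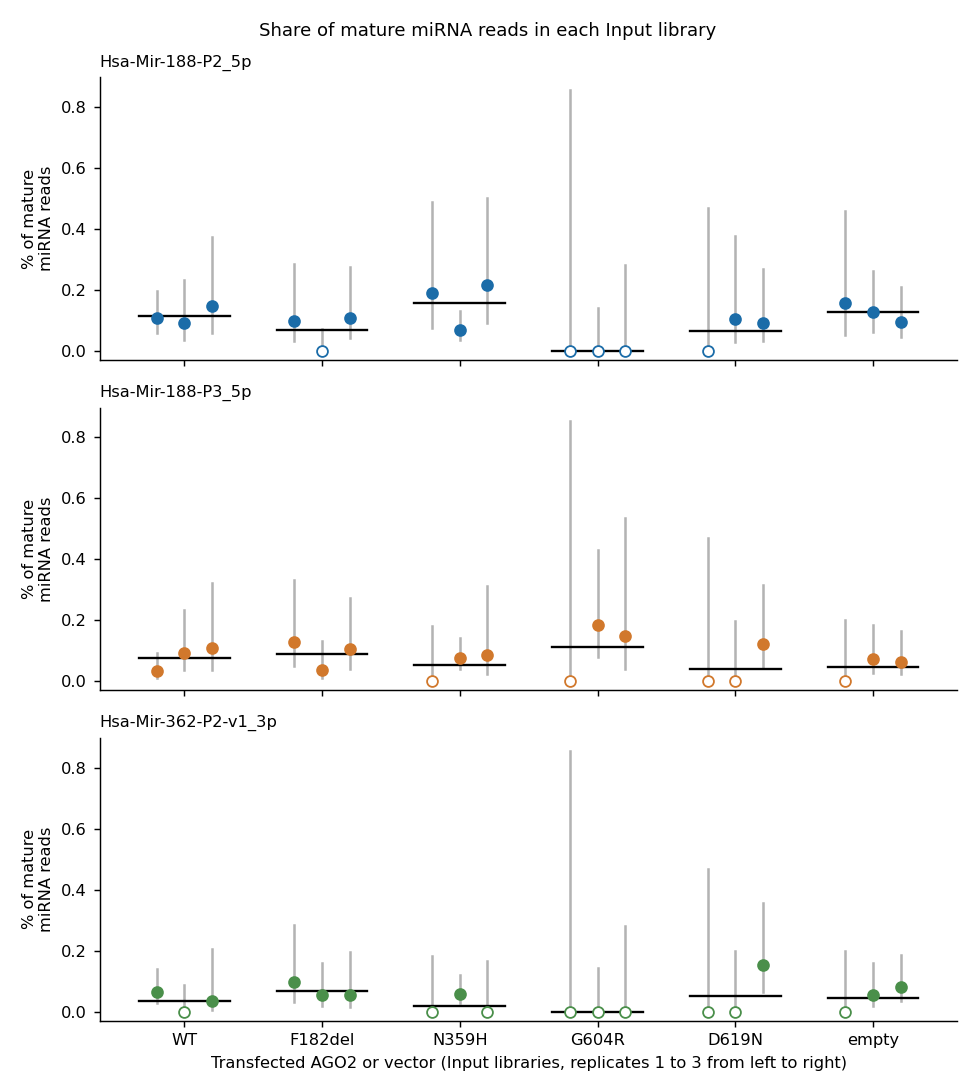
Share of mature miRNA reads (%) of each member in each Input library, with Wilson 95% intervals as grey lines, group means as black lines and open circles for libraries at 0. P2 was at 0 in all 3 G604R Inputs and above 0 in all 3 Inputs of WT, N359H and the empty vector.

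Both P2 and Mir-362 were at 0 in all G604R Inputs. For P2, a floor of 3 reads among the 4518 mature miRNA reads is a share of 0.0664%, against 0.109% over the WT Inputs. At the WT share 4.92 reads would have been seen. The WT share was 1.64 times this floor, but the pooled Wilson intervals overlapped (0.0688% to 0.172% in WT, 0% to 0.0850% in G604R). As overlap is not a test of a difference, whether the lower share of P2 goes beyond counting error was not tested. Without G604R replicate 2, the deepest of these Inputs, a lower level was not detectable at this depth. P2 was 1 of the 8.49% of miRNAs tested that lay below WT in all G604R Inputs by share. Its log2 fold change was -2.63 (SE 0.58) with a limma adjusted p of 0.0620, with G604R values that have no spread. Like Mir-362, P2 passed the filter on low values only through WT-AGO2, so the limma values and calls of both in this comparison are given as values only. P2 was called when the Inputs were scaled to mature miRNA reads (limma adjusted p = 0.0117) or when WT Input replicate 1, 2 or 3 was left out (limma adjusted p = 0.00655, 0.00236 and 0.000508). It was not called under the other 8 alternatives, which include leaving out each G604R Input and gave a limma adjusted p between 0.0916 and 0.405. For Mir-362 the WT share gives 1.91 reads in the G604R Inputs, so a lower level was not detectable at this depth. It was called without WT Input replicate 2, which has 0 reads of it (limma adjusted p = 0.00231), but the expected number was then 2.61 reads and a lower level was still not detectable. Between the variant and WT Inputs, limma called 0 of 3 members for F182del, N359H, G604R and D619N, and 0 for the empty vector, beside 0% of the miRNAs tested in each. At an unadjusted p below 0.05 the only member was P2 with G604R.

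Whether a difference from WT in IP differed from that in the Input was tested as an interaction of fraction and variant. In limma 0 of 3 members were called for any variant, beside 0.741% of the miRNAs tested for F182del, 0% for N359H, 1.54% for G604R and 3.94% for D619N. For D619N the interaction was -2.09 on the log2 scale (SE 1.70) for P3 and -2.82 (SE 1.81) for Mir-362. The difference of these members from WT in IP was thus not separated from that in the Input at this depth. The only member at an unadjusted p below 0.05 was P2 with N359H (interaction -2.90, SE 1.34, limma adjusted p = 0.647). P2 was at 0.157% ± 0.0792 (SD, n = 3) of the N359H Inputs, the highest mean of the 12 conditions, and at a mean of 0.0308% in N359H IP.

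In IP of the empty vector the members had 0 reads in all 3 libraries. At the WT share, 0.840 reads of P2, 0.595 of P3 and 0.233 of Mir-362 would have been in these 560 reads, so a lower share than in WT IP was not detectable at this depth. In limma on scaled RPM all 3 were called lower, beside 59.5% of the 121 miRNAs tested, and 2 of 3 with a pseudocount of 10 RPM, but they passed the filter only through WT and nothing is read from these calls.

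Over the 10 conditions with tagged AGO2, the miRNAs whose condition means of log2(CPM + 100) most resembled the sum of P2 and P3 were Hsa-Mir-196-P1_5p (Pearson's r = 0.80), Hsa-Mir-577_5p (0.75) and Hsa-Mir-1180_3p (0.74), where CPM is reads scaled to the mature miRNA reads of a library. For Mir-362 they were Hsa-Mir-197_3p (0.81), Hsa-Mir-345_5p (0.80) and Hsa-Mir-221-P1a_5p* (0.77). The profile of Mir-362 had an r of 0.71 with P3 and of 0.31 with P2. The points share libraries and depth, and 132 miRNAs were compared, so these values are descriptions only.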

How the data were processed

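The authors made small RNA libraries with the TruSeq kit, processed single-end reads with sRNAbench (mean Phred threshold 20) and MirGeneDB names, and deposited RPM relative to total reads for 135 mature miRNAs in 36 libraries. The labels name GRCh38. The file's terms minExpr1 and RCadj are not explained. The deposited RPM were whole multiples of 1 read. The authors tested counts with DESeq. Since RPM are deposited, limma 3.58.1 in R 4.3.3 (trend) was fitted here on log2(scaled RPM + 1), and no count model was fitted. The fits covered all miRNAs with at least 1 scaled RPM in 2 of 3 libraries of a group, with Benjamini-Hochberg adjustment over all tested, for 15 comparisons. The fits were tested on simulated data. Samples were grouped by genotype and fraction in the labels, and 0 columns lacked a sample. Named are all members and, per family, the 3 miRNAs with the most similar profile. The members and lists were chosen with earlier results of these data known. Wilson and exact intervals came from scipy 1.17.1. Same-numbered libraries deviated together, with all 3 correlations above 0.1, for F182del against WT in IP (0.339, 0.178 and 0.133) and in Input (0.146, 0.249 and 0.230). By the paper's methods, the Input sample was taken from the lysate that was then used for the IP. The main fits, including those of IP against Input, held no replicate block and did not use this pairing. Alternatives were another pseudocount, no filter, RPM as deposited, scaling to mature miRNA reads, the replicate number as a block, a fit of all 5 AGO2 groups and each library left out.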

Additional observations from a re-analysis of the deposited data

Results flagged for a closer look

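All members and variants were searched for a change from Input to IP in opposite directions in all 3 replicates of WT-AGO2 and of the variant. Hsa-Mir-188-P2_5p in N359H met this rule, so the pattern is what it was selected for. Its share of mature miRNA reads was higher in IP than in the Input of the same replicate in all 3 WT replicates (1.43, 1.37 and 1.12 times). It was lower in all 3 N359H replicates (0.319, 0.479 and 0 times). In limma the WT change alone was not called (log2 fold change 0.58, SE 0.47). The interaction of fraction and variant was -2.90 on the log2 scale (SE 1.34), with an unadjusted p of 0.0439 and an adjusted p of 0.647 in limma, so it did not pass the correction. It rests on 2 to 8 reads in 5 of the 6 N359H libraries and 0 in the sixth, and was -1.83 without N359H IP replicate 3. The adjusted p ranged from 0.368 to 0.959 over the alternatives. Relative to total reads (RPM), IP was above Input in 2 of the 3 N359H replicates. Groups of 3 libraries are too small for a test of outlying libraries.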

How the results depend on the processing

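Of the 177 log2 fold changes recomputed under alternatives, 165 kept their direction and side of the threshold, and of the 197 recomputed counts of called members, 190 were unchanged or within 1.5 times. On RPM as deposited, 0 members were called in D619N IP (log2 fold change -5.62 for Hsa-Mir-188-P3_5p and -4.65 for Hsa-Mir-362-P2-v1_3p) and 3 in WT IP over Input (4.11 for Hsa-Mir-188-P2_5p, 3.97 for Hsa-Mir-188-P3_5p and 3.62 for Hsa-Mir-362-P2-v1_3p), and Hsa-Mir-188-P3_5p in G604R IP turned to -0.29. In the fit of all 5 AGO2 groups, 1 member was called in D619N IP (Hsa-Mir-188-P3_5p at -5.23, limma adjusted p = 0.0456), while Hsa-Mir-362-P2-v1_3p was not (-4.29, limma adjusted p = 0.132). With scaling to mature miRNA reads, 1 member was called in G604R Input. With a pseudocount of 10 RPM, Hsa-Mir-362-P2-v1_3p in G604R IP was at 0.17. The members called in D619N IP and in G604R Input were at 0 in every library of the variant, so these calls are given as values only. The cause of these changes was not tested.

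Leaving out each library gave 2 called members in D619N IP throughout and 0 to 2 in G604R Input, the upper values without a WT Input library. The called members were at 0 in every library of these variant groups, so nothing is read from how steady the calls were. The log2 fold change of Hsa-Mir-362-P2-v1_3p ranged from -2.31 to 0.52 in F182del IP (positive without replicate 2) and from -1.59 to 1.28 in G604R IP (positive without replicate 3), that of Hsa-Mir-188-P3_5p from -3.03 to 0.27 in N359H IP (positive without replicate 2), and that of Hsa-Mir-188-P2_5p from -3.01 to 0.61 in D619N IP (positive without replicate 3). With the replicate number as a block, 2 members were called in D619N IP (limma adjusted p = 0.0368 for each) and 0 in F182del IP, and the block changed no call of a member in the 15 comparisons. With at most 47 reads behind a value, depth limits all comparisons of these members.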
